A study of Bos taurus with 48 samples.

Results

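The comparison described here is d 7 against d 2 in the control calves, the 6 animals (calves 1755, 1759, 1763, 1789, 1802 and 1803) that were moved indoors together with their dams and left unweaned. The 12 libraries were chosen by label alone, as the d 2 and d 7 columns of these calves, out of 48 libraries from 12 calves, and each calf was compared with itself. The calves were intact males of a breed labelled Continental (Simmental in the study), their age is labelled only as calf, and every calf used here had been vaccinated against respiratory viruses before the trial and was housed on d 0. Control pairs shared pens with another cow and calf. The other 6 calves, housed on d 0 and weaned from their dams on the same day, were used as a second set of d 2 and d 7 libraries, and the d 0 and d 1 libraries of all calves only for levels over time and for alternative fits. Total leukocytes from blood were sequenced as poly(A)-selected RNA, in single reads. The question is which transcripts of the blood cells differed between the end of the first week indoors and d 2 in calves kept with their dams, without reference to the baseline of d 0.

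Leukocyte RNA from whole blood mixes neutrophils, eosinophils, monocytes, B cells, natural killer (NK) cells and T cells, including the gamma delta T cells that are abundant in young cattle. Handling and transport release cortisol and catecholamines, which are known to move neutrophils into the circulation and lymphocytes out of it. Immediate early genes such as FOS and FOSB encode subunits of the AP-1 transcription factor and are switched on within minutes of a stimulus. Fewer cells of a type and less RNA per cell cannot be told apart in bulk leukocyte RNA alone, and this holds for every gene below. The study also counted blood cells. Between the days compared here, its control means were equal for neutrophil percentage and close for lymphocytes and eosinophils. The monocyte mean was lower on the later day. These group means include calves that were not sequenced and do not separate lymphocyte types. The part of cell numbers in the changes below was not tested.

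The 12 libraries held between 1662995 and 4112564 counts on genes, so that 3 counts corresponded to 0.729 to 1.80 CPM (counts scaled to a common library size). Between 12919 and 14292 genes had at least 1 count per library. The d 2 library of calf 1759 was the shallowest of all 48. The d 2 and d 7 libraries were run on one flowcell in 4 of the 6 calves and on different flowcells in calves 1755 and 1789, whereas all 6 weaned calves had both libraries on one flowcell. The flowcells were read from the study's list of libraries, whose sampling numbers were matched to days by their order in the sampling schedule. Over 8903 genes with a mean of at least 10 CPM, the standard deviation of the log2 change was 0.70 in calf 1755 and 0.59 in calf 1789, against 0.29 to 0.38 in the other 4 control calves and 0.21 to 0.55 in the weaned calves. In calf 1755, 13.7% of these genes differed at least 2-fold between the days, in calf 1789 7.67%, and in the other control calves 0.505 to 2.21%. The d 2 and d 7 deviations from the day means correlated within calf at -0.05 in calf 1755 and 0.21 in calf 1789. In the other 4 control calves this correlation was 0.34 to 0.68. The part of the flowcell or of the pairing in the larger changes of calves 1755 and 1789 was not tested. The value without these 2 calves is therefore given beside the changes that it moved most.

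**Figure D1:**
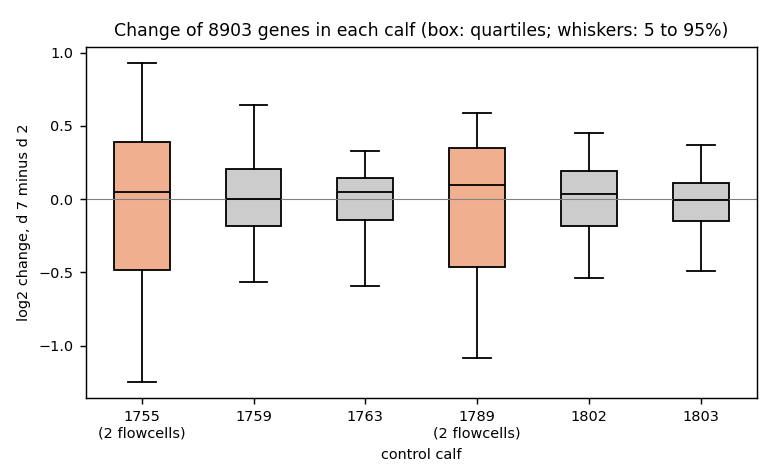
Box plots of the within-calf log2 change (d 7 minus d 2, log2(CPM + 1)) of 8903 genes in each control calf; boxes span the quartiles, whiskers the 5th to the 95th percentile. The 2 calves whose libraries came from different flowcells (shaded) have the widest boxes, with standard deviations of 0.70 and 0.59.

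Across the 13737 genes tested with calf as a block, no gene passed the threshold of adjusted p under 0.05 with at least a 2-fold difference (0.0% of genes, edgeR quasi-likelihood F-test). The smallest adjusted p was 0.0748. An unadjusted p under 0.05 was found for 3046 genes (22.2%), of which 1014 (7.38%) were higher on d 7 and 2032 (14.8%) were lower. The excess of lower genes depended on the fit: RLE factors gave 1415 higher and 1837 lower, and the fit of all 48 libraries turned it, with 1013 higher and 839 lower. DESeq2 called 10 genes, 5 in each direction. The exact test of edgeR without the calves as blocks called 91 with a common dispersion and 10 with gene-wise dispersions. More genes had an adjusted p under 0.05 without the 2-fold limit: 406 with DESeq2, 81 higher and 325 lower. In the exact tests these were 276 with the common dispersion and 25 with gene-wise dispersions, and in the quasi-likelihood test above 0. The count of 0 in the quasi-likelihood test depended on the calves, the filter and the set of libraries fitted. Without calf 1803 the test called 37 genes, 7 higher and 30 lower, and without calf 1763 it called 1. With no filter on low counts it called 57, 15 higher and 42 lower, and in the fit of all 48 libraries 2. Without the fold limit, 248 genes had an adjusted p under 0.05 without calf 1803 and 676 with no filter. Of these, 213 and 592 were lower. In the 4 calves with both libraries on one flowcell, none was called (0.0%) and 1219 genes (9.24%) had an unadjusted p under 0.05, 447 higher (3.39%) and 772 lower (5.85%). All changes below are therefore given as values, and those named did not pass the adjusted threshold in the quasi-likelihood F-test of 13737 genes.

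The direction differed with the abundance of the transcript. The genes tested were divided into 4 bins of equal size by their mean level. In the most abundant bin, 16.6% were higher and 8.82% lower at an unadjusted p under 0.05. In the 2 middle bins the order was the opposite, with 22.2% and 23.9% lower against 4.98% and 5.77% higher. In the least abundant bin 4.25% were lower and 2.21% higher. Separation of the days was rare: in 22 genes (0.16%) every d 7 library was above every d 2 library, and in 63 (0.459%) every one was below.

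Symbols were at hand for 644 of the 25669 genes in the table, and 577 of these were tested. The symbols come from the study's own lists of differentially expressed genes, so the named genes are no random sample and their direction is not independent of these libraries. Of the 577, 33.4% were lower at an unadjusted p under 0.05 and the median log2 change was -0.46, whereas the median over all genes tested was 0.00011. The 463 genes that the study had called in a comparison using control d 2 or d 7 libraries had a median of -0.53, and the 114 called only in other comparisons had a median of -0.04, with 11.4% of them at an unadjusted p under 0.05 in either direction.

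FOSB (ENSBTAG00000008182), an AP-1 subunit, had the smallest p of all genes tested. On d 2 its level ranged from 16.6 to 53.8 CPM with a median of 27.3, and on d 7 from 36.7 to 164 CPM with a median of 71.7. The ranges overlapped, but each of the 6 calves was higher on d 7, by 2.00, 1.59, 0.33, 1.10, 1.07 and 1.87 on the log2(CPM + 1) scale in the order of calves given above. The fitted log2 change was 1.32 ± 0.20 (SE, n = 6 calves, adjusted p = 0.0748), and the exact two-sided sign-flip p of 0.0312 is the smallest that 6 calves allow. Without calves 1755 and 1789 the log2 change was 1.21. FOSB passed the threshold with DESeq2 (log2 change 1.36), in the fit of all 48 libraries (1.39, adjusted p = 0.017) and without calf 1763 (1.54, adjusted p = 0.0125). FOS, of the same gene family, ranged from 84.5 to 230 CPM on d 2 and from 98.3 to 632 CPM on d 7, with a log2 change of 0.44 ± 0.15 (adjusted p = 0.127). It was higher on d 7 in 5 of 6 calves, calf 1803 being the exception. These were the 2 tested members of the 26 immediate early genes listed.

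Among genes with a symbol, the next ones higher on d 7 were scarce transcripts. Genes without a symbol came between, the first of them ENSBTAG00000018169 with a log2 change of 1.23 (adjusted p = 0.0748). ADCY8, a calcium-stimulated adenylyl cyclase, ranged from 1.36 to 3.35 CPM on d 2 and from 3.93 to 7.52 CPM on d 7. The days did not overlap, and the log2 change was 1.25 ± 0.27 (adjusted p = 0.0748) over 46 counts on d 2 and 101 on d 7, and 1.38 without the calves run on 2 flowcells. The study had not called ADCY8 in a comparison with these libraries. ANPEP, the myeloid cell surface aminopeptidase CD13, had a median of 0.802 CPM on d 2 and 3.50 CPM on d 7, and its log2 change of 2.02 ± 0.43 rested on 21 and 78 counts over the 6 libraries of each day. It was higher in 6 of 6 calves, in calf 1803 by 0.08. CHRNG, a subunit of the muscle acetylcholine receptor, had 10 counts on d 2 and 43 on d 7 in all, so its log2 change of 2.24 ± 0.49 is read from few molecules. LIF, a cytokine of the interleukin 6 family, had medians of 8.33 and 16.4 CPM and a log2 change of 0.88 ± 0.21 (adjusted p = 0.0812), higher in 6 of 6 calves. SLIT3, a secreted ligand of ROBO receptors, had a log2 change of 0.68 ± 0.19. PAK6, a kinase that binds small GTPases, had one of 0.79 ± 0.26, which was 0.50 in the 4 calves on one flowcell. Both were higher in every calf.

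The 10 genes with a symbol and the smallest p among those lower on d 7 included XPO1, SMC3, RARS, LRPPRC, COPB1, DARS and CASP8AP2, with medians on d 2 between 25.7 and 71.8 CPM. XPO1, the exporter that carries proteins with a leucine-rich signal out of the nucleus, ranged from 50.4 to 81.2 CPM on d 2 (median 65.8) and from 26.1 to 52.1 CPM on d 7 (median 33.7). The ranges overlapped between 50.4 and 52.1 CPM, and all 6 calves were lower, with a log2 change of -0.82 ± 0.15 (adjusted p = 0.0748) that was -0.56 in the 4 calves on one flowcell. SMC3, a core subunit of the cohesin ring that holds sister chromatids together, ranged from 54.7 to 78.7 CPM on d 2 and from 35.6 to 49.2 CPM on d 7. Its days did not overlap, and the log2 change was -0.70 ± 0.13, or -0.53 in those 4 calves. RARS and DARS, which charge transfer RNAs with arginine and aspartate, had log2 changes of -0.78 ± 0.15 and -0.75 ± 0.15. RARS ranged from 28.6 to 53.5 CPM on d 2 and from 15.8 to 35.2 CPM on d 7. Between -0.73 and -0.97 in 5 calves, its within-calf change was -0.13 in calf 1803.

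Other genes in this group had changes of similar size. LRPPRC, which stabilises mitochondrial messenger RNA, had a log2 change of -0.76 ± 0.15. COPB1, a coat protein of vesicles that return from the Golgi, had one of -0.83 ± 0.17. CASP8AP2, needed for histone transcript processing and for passage through S phase, had one of -0.76 ± 0.15 and PBEF1 (now NAMPT), which makes the precursor of NAD, one of -1.09 ± 0.23. PBEF1 ranged from 16.4 to 33.9 CPM on d 2 and from 6.43 to 16.1 CPM on d 7 without overlap. Each of the 10 leading genes was lower in 6 of 6 calves, and each was also lower in the 4 calves on one flowcell, by 0.53 to 1.00 on the log2 scale. Over all 577 genes with symbols, 101 (17.5%) were lower in every calf and 13 (2.25%) higher in every calf, beside 6.94% and 6.04% of all genes tested.

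**Figure D2:**
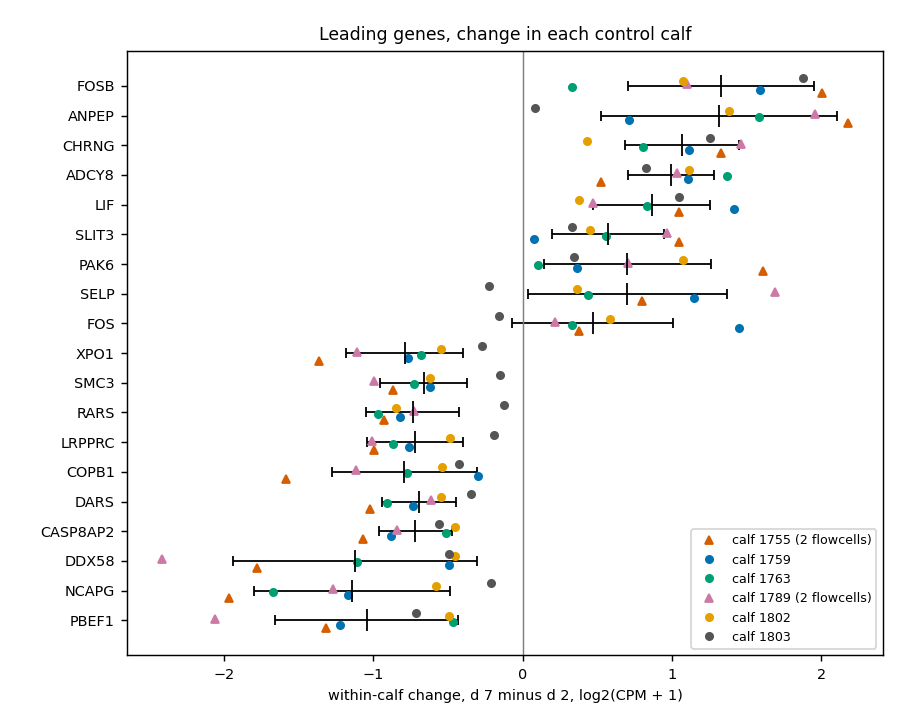
Within-calf change (d 7 minus d 2) on the log2(CPM + 1) scale of the leading genes with a symbol in each of 6 control calves, with mean and SD (bar); triangles mark the 2 calves whose libraries came from different flowcells. The 10 lower genes lie left of 0 in every calf, and calf 1803 has the smallest change in 6 of the 10, at -0.13 for RARS.

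DDX58 (RIG-I), the cytoplasmic sensor of viral RNA and itself induced by interferon, was the only tested member of 44 interferon-stimulated genes listed. Its level ranged from 45.7 to 123 CPM on d 2 (median 98.7) and from 22.2 to 68.5 CPM on d 7 (median 38.8). All 6 calves were lower, by 1.78 and 2.42 in calves 1755 and 1789 and by 0.45 to 1.11 in the others. The fitted log2 change was -1.17 ± 0.24 (adjusted p = 0.0748), and -0.67 without those 2 calves. TNFSF10 (TRAIL), a death ligand that interferons induce, had a log2 change of -0.86 ± 0.19 (adjusted p = 0.0801), lower in 6 of 6 calves, and -0.50 without calves 1755 and 1789. The list of interferon gamma and antigen presentation had 4 tested members with a median of -0.99, or -0.53 in the 4 calves on one flowcell, of which 3 were lower and none higher at an unadjusted p under 0.05 (background 14.8% and 7.38% of all genes, and 33.4% lower among genes with a symbol). The chemokine CXCL10 was lower by 4.74 in calf 1789 and by 2.64 in calf 1803 but higher by 0.85 in calf 1759, and its log2 change of -1.49 was -0.86 in the 4 calves on one flowcell. CD274 (PD-L1) was likewise lower by 3.52 and 2.15 in calves 1789 and 1803, and its change lay between -1.30 and 0.39 in the other 4 calves. The log2 change of CD274 was -1.31, and -0.62 without the calves on 2 flowcells. JAK2, the kinase of the interferon gamma receptor, had a log2 change of -0.68 ± 0.21, -0.30 without the calves on 2 flowcells.

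Mitosis genes were mostly lower on d 7. Of 13 tested mitosis genes, 10 were lower and none higher at an unadjusted p under 0.05. Beside this, 14.8% of all genes and 33.4% of those with a symbol were lower. The median log2 change of the 13 was -0.77, and -0.55 in the 4 calves on one flowcell. It was 0.00011 over all genes tested and -0.46 over those with a symbol. The 463 genes that the study had called with control d 2 or d 7 libraries had a median of -0.53. NCAPG, a condensin subunit that compacts chromosomes, ranged from 9.83 to 26.1 CPM on d 2 and from 2.50 to 10.5 CPM on d 7, with a log2 change of -1.25 ± 0.26 (adjusted p = 0.0748) and lower values in 6 of 6 calves. SMC2, the condensin core subunit, had a log2 change of -0.77 ± 0.16, and -0.85 in the 4 calves on one flowcell. CENPI, of the inner kinetochore, had one of -0.79 ± 0.18, which was -0.48 in those 4 calves, and CASC5 (now KNL1), of the outer kinetochore, one of -0.83 ± 0.27. Of 5 tested genes of DNA replication and S phase, 2 were lower and none higher, with a median of -0.43, and this count is near the 33.4% lower among genes with a symbol. MCM10, which loads polymerase at origins, had a log2 change of -0.76 ± 0.25 and CDC7, the kinase that fires them, one of -0.58 ± 0.19, each lower in 5 of 6 calves. All but 1 of the 13 mitosis genes came from study lists that used control d 2 or d 7 libraries, which is no independent evidence of direction.

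Of 15 tested centrosome and cilium proteins, 9 were lower and none higher at an unadjusted p under 0.05. Beside this, 14.8% of all genes and 33.4% of those with a symbol were lower. All but CEP78 came from study lists that used control d 2 or d 7 libraries, which is no independent evidence of direction. All 15 had negative changes, with a median of -0.47, near the -0.46 over tested genes with a symbol. In the 4 calves on one flowcell these medians were -0.35 and -0.29. CEP76 had a log2 change of -0.67 ± 0.19, which was -0.44 in those calves, and NEDD1, which anchors the gamma-tubulin ring, one of -0.68 ± 0.19, both lower in 6 of 6 calves. Outside this list, RASA1, a GTPase-activating protein, had no overlap between the days. It ranged from 32.7 to 37.3 CPM on d 2 and from 22.2 to 29.3 CPM on d 7. Its log2 change was -0.45 ± 0.13.

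**Figure D3:**
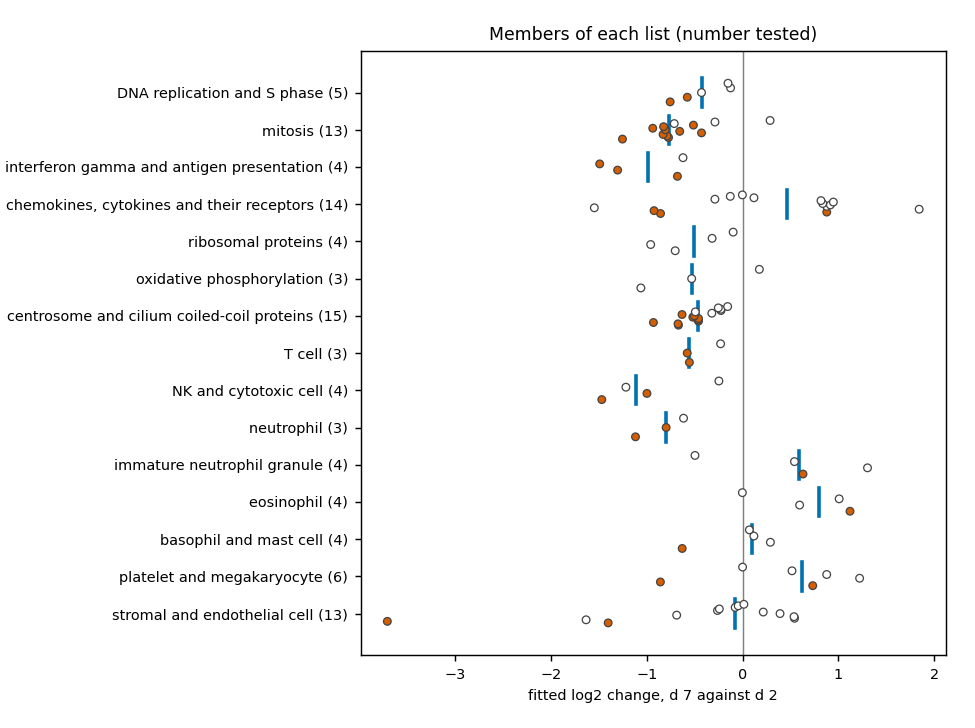
Fitted log2 change (d 7 against d 2) of each tested member of 15 lists with at least 3 tested members; filled points have an unadjusted p under 0.05, and blue bars are list medians. Mitosis lies around a median of -0.77 and centrosome proteins around -0.47, beside -0.46 over all tested genes with a symbol. Chemokines and stromal genes scatter on both sides of 0.

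Among lymphocyte markers, GZMA, the granzyme A of cytotoxic granules, ranged from 6.70 to 29.5 CPM on d 2 (median 11.7) and from 2.50 to 7.25 CPM on d 7 (median 4.94). Its log2 change was -1.47 ± 0.34 (adjusted p = 0.0801), lower in 5 of 6 calves, and -0.95 in the 4 calves on one flowcell. KLRD1 (CD94), the partner chain of NK receptors, had a log2 change of -0.999 ± 0.41, lower in 5 of 6 calves, and -0.60 in those 4 calves. KLRC1 had 32 counts on d 2 and 11 on d 7 in all, and KLRK1 (NKG2D), which is shared with T cells, had a log2 change of -0.25 ± 0.31. These 4 NK and cytotoxic genes had a median of -1.11 (2 lower and none higher at an unadjusted p under 0.05, beside 33.4% lower among genes with a symbol), which was -0.53 in the 4 calves on one flowcell. In calf 1803 all 4 were higher on d 7. The 3 tested T cell genes had a median of -0.56. Tested genes with a symbol had -0.46, and those that the study had called with control d 2 or d 7 libraries had -0.53. TRAT1, of the T cell receptor complex, had a log2 change of -0.56 ± 0.18 and ICOS, a costimulatory receptor, one of -0.58 ± 0.23, lower in 6 of 6 calves. No B cell, gamma delta T cell or glucocorticoid-responsive gene on the lists had a symbol to match, and plasma cells and monocytes had 1 tested marker each.

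Granulocyte markers had no common direction. The 3 tested neutrophil genes had a median of -0.80, which was -0.34 in the 4 calves on one flowcell. AQP9, a water and glycerol channel, had a log2 change of -1.12 ± 0.32, lower in 6 of 6 calves. ALPL, the alkaline phosphatase of neutrophil granule membranes, had one of -0.80 ± 0.24, which was -0.34 without the calves on 2 flowcells. Its within-calf change was -1.27, -1.98 and -1.31 in calves 1755, 1789 and 1803, and lay between -0.03 and 0.11 in the other 3. PROK2 had a log2 change of -0.62 ± 0.30, which was -0.13 without those calves. PGLYRP1, a peptidoglycan-binding granule protein of maturing neutrophils, had the opposite sign with a log2 change of 0.63 ± 0.23, higher in 6 of 6 calves. It was the only one of the 4 tested genes of immature neutrophil granules at an unadjusted p under 0.05. The other 3, all matched to the cathelicidin CAMP, had log2 changes of 1.304 ± 0.84, 0.54 ± 0.66 and -0.50 ± 0.63. In the 4 calves on one flowcell they were 1.86, 1.19 and 0.18, so the third turned. Near-identical gene copies can lose reads, because only unique alignments were kept.

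The 4 eosinophil markers (IL5RA, ALOX15, GATA1 and SMPD3) had a median of 0.80, which was 0.14 in the 4 calves on one flowcell. All 4 were higher on d 7 in calves 1755, 1759, 1789 and 1802, with medians of 2.99, 1.25, 1.59 and 1.16, and all 4 were lower in calves 1763 and 1803, with medians of -0.638 and -0.9997. SMPD3, a sphingomyelinase, ranged from 4.05 to 177 CPM on d 2 and from 36.0 to 380 CPM on d 7, with a log2 change of 1.12 ± 0.48 (adjusted p = 0.199), which was 0.23 in the 4 calves on one flowcell. IL5RA had a log2 change of -0.0027 that turned under other scalings, and ALOX15 was higher by 7.42 in calf 1755. The 4 markers thus had one sign within each calf and different signs between calves.

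Markers of other cells gave no common direction. Of 6 tested platelet genes, 1 was higher and 1 lower at an unadjusted p under 0.05, beside 7.38% higher and 14.8% lower of all genes. They were SELP (P-selectin), with a log2 change of 0.73 ± 0.24, and P2RY12, the platelet receptor for ADP, with -0.86 ± 0.33. Without the calves on 2 flowcells these were 0.40 and -0.38, and the list median of 0.62 became -0.11. The 2 erythroid genes, HBB and ALAS2, had changes of 0.29 ± 0.31 and 0.13 ± 0.35, and ALAS2 turned to -0.25 without those calves. Of 13 stromal and endothelial genes, 2 were lower at an unadjusted p under 0.05, near the 14.8% of all genes, and the median of -0.08 became 0.21 in the 4 calves on one flowcell. One was SELE (E-selectin), with 51 counts on d 2 and 17 on d 7 in all, lower in 6 of 6 calves, and the other was DCN, with 27 and 1 counts. Dendritic cell markers were FLT3, with a log2 change of 0.32 ± 0.22 and higher values in 6 of 6 calves, and FCER1A, with 0.29 ± 0.21. The part of any of these cells in the results above was not tested.

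Of 14 tested chemokines, cytokines and receptors, 1 was higher (LIF) and 2 lower (TNFSF10 and IL18) at an unadjusted p under 0.05. These counts were near the shares of all genes tested, 7.38% higher and 14.8% lower. The list median of 0.47 became -0.06 in the 4 calves on one flowcell. IL18 had a log2 change of -0.93 ± 0.37, lower in 4 of 6 calves, and -0.45 in the 4 calves on one flowcell. HSPH1, a chaperone of the HSP110 family, was lower in 6 of 6 calves with a log2 change of -0.80 ± 0.21 (-0.41 in the 4 calves on one flowcell), whereas HSPA6 had one of 0.04 ± 0.28, whose sign turned under other settings. PSMA2, a subunit of the proteasome core, had no overlap between the days and a log2 change of -1.18 ± 0.38 over 99 and 41 counts. The 4 ribosomal protein genes and the 3 genes of oxidative phosphorylation had medians of -0.51 and -0.53 with none at an unadjusted p under 0.05. These medians were near the -0.46 over tested genes with a symbol. A further set of 17 genes came from the study's lists for control calves and from other earlier results of the series. Its 16 tested members, 2 higher and 14 lower, had log2 changes from -1.63 to 0.64 and adjusted p from 0.18 to 0.981. In that set only GNG12, a G protein gamma subunit with 22 counts on d 2 and 6 on d 7, had an unadjusted p under 0.05. Beside this, 22.2% of all genes and 38.1% of those with a symbol had one.

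In the weaned calves the same comparison of d 7 with d 2 gave no call among 14109 genes (0.0%), and 171 genes (1.21%) had an unadjusted p under 0.05, 75 higher (0.532%) and 96 lower (0.68%). This is fewer than a threshold of 0.05 gives when no gene changes, so it does not show that weaned calves stayed unchanged. The standard deviation of the log2 change was 0.50 in weaned calf 1762 and 0.55 in weaned calf 1809. The reason for the low count was not tested. No weaned d 7 library set stood wholly below that of d 2 in any gene, and in 2 genes it stood wholly above. The difference between the 2 changes was tested with an interaction term in one fit of the 24 libraries. None of 14735 genes passed (0.0%), the smallest adjusted p was 0.115, and 1225 genes (8.31%) had an unadjusted p under 0.05, of which 947 (6.43%) had the lower change in control calves and 278 (1.89%) the higher. This balance also depended on the fit: RLE factors gave 805 lower and 400 higher, the calves on one flowcell 173 and 149, and all 48 libraries turned it, with 234 lower and 308 higher. DESeq2 called 1 gene, FOSB. In the weaned calves FOSB had medians of 44.1 CPM on d 2 and 39.0 CPM on d 7 and was lower on d 7 in 5 of 6 animals. The difference of the log2 changes was 1.72 ± 0.28 (adjusted p = 0.115), and it passed without control calf 1763 (1.96, adjusted p = 0.00608). Next in that direction came SELP, with a difference of 1.27 ± 0.35 and lower values in 6 of 6 weaned calves. With the lower change in control calves, the leading named genes were DLG1, a scaffold protein of lymphocyte polarity (-1.001 ± 0.26), and CENPI (-1.04 ± 0.27), both with an adjusted p of 0.593.

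Over the 4 days the control calves had median FOSB levels of 24.3, 28.0, 27.3 and 71.7 CPM on d 0, d 1, d 2 and d 7, and the weaned calves 25.6, 46.6, 44.1 and 39.0 CPM. XPO1 had medians of 79.5, 52.3, 65.8 and 33.7 CPM in control calves and of 60.2, 66.3, 64.04 and 58.4 CPM in weaned calves. DDX58 had medians of 128, 90.4, 98.7 and 38.8 CPM in control calves and 82.6, 92.2, 97.1 and 81.6 CPM in weaned calves. GZMA had medians of 18.5, 10.6, 11.7 and 4.94 CPM in control calves and 9.69, 9.55, 9.08 and 6.33 CPM in weaned calves. For the lower genes, the control median on d 7 was thus the lowest of the 4 days.

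**Figure D4:**
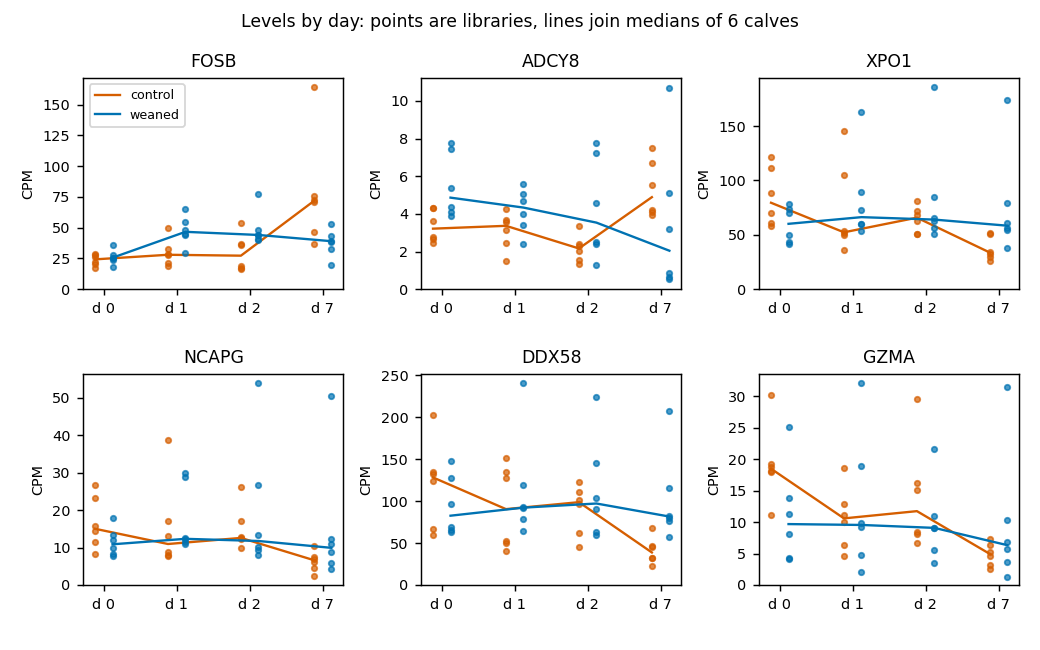
Levels in CPM (linear axes from 0) of 6 genes on d 0, d 1, d 2 and d 7, drawn at equal spacing, in control (orange) and weaned (blue) calves; each point is 1 library and lines join the medians of 6 calves. FOSB and ADCY8 have their highest control median on d 7, and XPO1, NCAPG, DDX58 and GZMA their lowest.

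The changes of the mitosis and centrosome lists differed between calves. Whether calf 1803 stood apart in these lists more than in other genes with a symbol was not tested. The median change over the 13 mitosis genes was -0.70, -0.68, -0.69, -0.89 and -0.47 in calves 1755, 1759, 1763, 1789 and 1802, and 0.06 in calf 1803, where 9 of the 13 were higher. For the 15 centrosome genes the medians ran from -0.36 to -0.79 in the first 5 calves and stood at -0.08 in calf 1803. In 5 weaned calves the mitosis median lay between -0.05 and 0.34, but in weaned calf 1809 it was -0.90, with 11 of 13 lower, and the centrosome median was -1.05. Both libraries of calf 1809 came from one flowcell. Without this calf, the number of genes at an unadjusted p under 0.05 for the difference between treatments was 3295 in place of 1225, with none called.

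**Figure D5:**
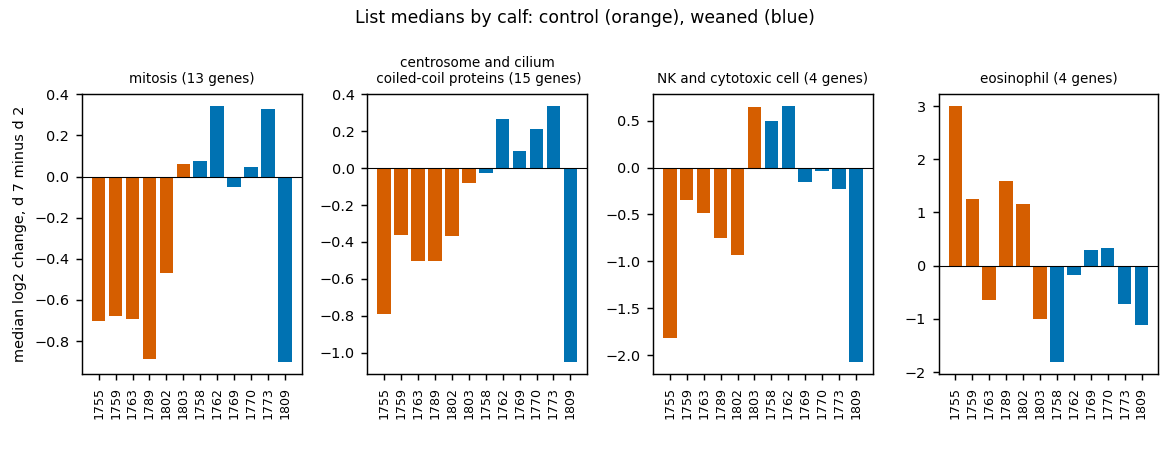
Median within-calf log2 change (d 7 minus d 2, log2(CPM + 1)) over the tested members of 4 lists in each control (orange) and weaned (blue) calf; each panel has its own axis. Control calf 1803, at 0.06 for mitosis, stands apart from the other control calves, and weaned calf 1809, at -0.90, from the other weaned calves.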

How the data were processed

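Leukocyte RNA of 12 calves was sequenced on d 0, 1, 2 and 7, and the 12 control libraries of d 2 and d 7 are the subject here. The deposited values are raw read counts per gene: the authors called bases with CASAVA 1.6, checked reads with FastQC 0.9.1, aligned them to Btau4.0 with Bowtie 0.12.7 without mismatches, kept unique alignments, removed duplicate reads and counted with HTSeq 0.4.6p2 on Ensembl genes, using edgeR 1.6.12 for their own tests. Duplicate removal can lower the counts of abundant genes most, and near-identical gene copies lose reads; the strand setting of the counting is not given in the sources used here. Of 25669 genes, those with at least 10 counts over the libraries fitted were kept.

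Counts were tested in edgeR 4.0.16 (R 4.3.3) with TMM factors, calf as a block and the quasi-likelihood F-test, with Benjamini-Hochberg adjustment over all genes, and called at an adjusted p under 0.05 and at least 2-fold. Standard errors were derived from the F statistic. Levels are CPM with TMM factors over 48 libraries, and within-calf changes are differences of log2(CPM + 1), tested by an exact two-sided sign-flip of 6 values. DESeq2 1.42.0 and other settings were alternatives. The fits were tested on simulated data. Pairing rests on d 2 and d 7 coming from the same animal; the d 2 and d 7 deviations of one calf correlated at 0.68, 0.63, 0.49, 0.34, 0.21 and -0.05 in calves 1759, 1763, 1802, 1803, 1789 and 1755 over 8903 genes. In calves 1755, 1789 and 1803 the own pair was not the best match in both directions, and the d 2 library of calf 1755 correlated at 0.38 with another calf's d 7. No pair of the 12 libraries was closer than sampling noise (lowest chi-square per degree of freedom 2.88 over 66 pairs). Symbols came from the study's supplementary tables through human orthologues; 13 symbols belong to more than 1 bovine gene.

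Named genes were the 10 with the smallest p in each direction among those with symbols, up to 4 per list, the leading genes of the interaction and 17 genes of earlier interest. The members, lists and rules were chosen with earlier results of these data known. One list is not reported here. The standard errors come from the fit with calf as a block and include the spread of the change between calves. Count floors cover counting error only.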

Additional observations from a re-analysis of the deposited data

Results flagged for a closer look

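Of 67 sets of 6 values examined for 1 value far from the other 5, 5 had one, and chance gives about 1 in 20. In RARS, the within-calf change of calf 1803 (-0.13) lay far from those of the other 5 calves, which ran from -0.97 to -0.73. In ALOX15, calf 1755 was higher by 7.42 and the others ran from -1.09 to 1.91. The d 2 library of calf 1759 had 1662995 counts where the other 5 had 3443620 to 4112564. The same library had 12919 genes with a count, against 14031 to 14292 in the others, and its 100 most abundant genes took 10.9% of its counts, against 8.15 to 9.10%. No gene named in the text passed a test of the difference between control and weaned calves at an adjusted p under 0.05 in the quasi-likelihood fit of the 24 libraries; FOSB passed with DESeq2 (1.76) and without control calf 1763 (1.96).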

How the results depend on the processing

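The count of called genes in control calves was 0 under RLE factors, upper-quartile factors, library totals, filterByExpr, the robust fit, all 24 control libraries, the 4 calves on one flowcell, the share of reads kept as a covariate and the unpaired fit. It was 10 with DESeq2, 2 with all 48 libraries, 57 with no filter on low counts, 91 with the exact test and a common dispersion and 10 with tagwise dispersions; leaving out 1 calf gave 0 to 37. Genes at an unadjusted p under 0.05 (3046) numbered 1737 with all 24 control libraries, 1852 with all 48, 1828 without the replicate block (smallest adjusted p 0.242), 1730 with the exact test and tagwise dispersions, 1219 in the 4 calves on one flowcell, 1680 with the covariate, and 1823 to 3473 without 1 calf. For the difference between treatments, DESeq2 called 1 gene and leaving out 1 calf gave 0 to 1. Its 1225 genes at an unadjusted p under 0.05 became 542 with all 48 libraries, 235 without the replicate block, 322 with calves on one flowcell, 448 without weaned calves 1758 and 1770, and 658 to 3295 without 1 calf. In weaned calves 171 such genes became 66 without the replicate block and 140 without calves 1758 and 1770, both chosen after seeing the data. The cause of these moves was not tested. Fits with fewer calves or libraries also leave fewer degrees of freedom, and the part of this was not tested either.

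Over the 61 genes named for the control calves, 1185 of 1207 values kept their direction and 22 turned. KLRK1 turned to 0.053 with the covariate. ALAS2 turned to -0.25, and the third CAMP copy to 0.18, in the 4 calves on one flowcell. HSPA6 turned to -0.00443 with all 24 control libraries, -0.024 and -0.019 with the exact tests, -0.018 without the replicate block and -0.029 with the covariate. IL5RA turned to 0.15 with DESeq2, 0.025 with RLE factors, 0.00979 with upper-quartile factors, 0.00599 with filterByExpr, 0.13 with all 24 control libraries and 0.17 with all 48. When 1 calf was left out, KLRK1 ran from -0.54 to 0.039, HBB from -0.013 to 0.62, ALAS2 from -0.21 to 0.36, HSPA6 from -0.091 to 0.30 and IL5RA from -0.39 to 0.45. In all, 101 values had an adjusted p under 0.05, counted without the fold limit, 18 of them without calf 1803. Of 165 list medians, 5 moved by more than their spread over calves and 8 changed sign, 5 of them that of the stromal and endothelial list. Depth limits genes near the floor of 3 counts, such as CHRNG, KLRC1 and GNG12.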
